A study of Mus musculus with 9 samples.

Results

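Early deletion of Mtor in the mouse oocyte was examined by comparing fully grown oocytes of the Gdf9-Cre conditional knockout (MG) with wild-type oocytes (WT), over every gene that reached 1 FPKM or more in 3 or more of the 6 MG and WT libraries. FPKM is the number of sequenced fragments of a gene scaled to the length of its transcript and to the fragments of the library. This level was reached by 10064 of the 24228 genes in the deposited table. All oocytes were at the germinal vesicle stage and came from large antral follicles of C57BL/6 females given 5 IU of PMSG, a hormone that drives follicles to grow, with collection 46 h later. The WT group had the genotype WT. In MG, Cre under the promoter of Gdf9, an oocyte gene, was used to delete Mtor in the oocyte, and in MZ, the other knockout of the series, Cre under the Zp3 promoter was used to do so. Each group had 3 libraries, and MZ entered the fit for its share of the common estimate of spread and for values set side by side with MG. The series design gives the age of the females as 23 days and the sample labels as 6 months, and this conflict was not resolved. The labels do not say whether separate animals gave the libraries, so each p-value reflects only how these libraries spread, which may be technical. How many oocytes went into each library was not given in the sources used here, nor whether WT females carried unrecombined floxed alleles.

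The mTOR kinase works in a pair of protein complexes. The complex built around Raptor promotes ribosome production and cap-dependent translation, and the complex built around Rictor acts on Akt and the cytoskeleton. Amino acids, energy and growth factors set the activity of the kinase through Rag and Rheb GTPases, the Tsc proteins and AMP-activated kinase. A growing oocyte stores maternal mRNA, ribosomes and mitochondria, and at full size it stops transcription, so its transcript pool reflects both what was made during growth and what has decayed since. Gdf9 is transcribed from the earliest follicle stages and Zp3 from the start of oocyte growth, so Gdf9-Cre acts earlier than Zp3-Cre.

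The libraries were shallow. From the size of the smallest FPKM steps, the fragments that scale the FPKM were estimated at 465500 (MZ 1) to 846600 (MG 3). With the FPKM and transcript lengths, this put the fragments in genes between 594400 (MG 1) and 1065700 (MZ 2). In a 1 kb transcript, 1 fragment amounted to between 1.64 FPKM (MG 3) and 3.01 FPKM (MG 1). A gene of a few FPKM therefore rests on a handful of fragments. The FPKM of all genes summed to 718684, 584503 and 654424 in WT and to 554305, 514173 and 428329 in MG. All MG sums lay below all WT sums, which gave an exact permutation p of 0.1 (two-sided), the smallest that 3 against 3 libraries allow. FPKM are relative values, so the amount of mRNA per oocyte was not measured, and in such bulk samples fewer cells of a type cannot be told apart from less RNA per cell.

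The oocyte identity of the libraries was checked by defining markers, all of which were found at high levels. Gdf9, a growth factor secreted by the oocyte, had 16930, 15470 and 17650 FPKM in WT and 18400, 14940 and 7327 FPKM in MG. The zona pellucida gene Zp3 had 1322, 1061 and 1199 FPKM in WT and 1402, 1089 and 555 FPKM in MG. For both genes MG 3 was the lowest library and the groups overlapped (limma adjusted p = 0.53 and 0.58). Bmp15, the partner of Gdf9, had means of 2593 and 2075 FPKM in WT and MG. Dppa3, a maternal protein that guards DNA methylation in the zygote, had 7013 and 5479 FPKM. None of the 10 oocyte markers passed the test between MG and WT by limma, and 2 of them, Nlrp5 and Bcl2l10, had an unadjusted p under 0.05.

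Mtor itself (chromosome 4, 148448611 to 148557683, GRCm38, protein coding) had 3.25, 3.33 and 2.95 FPKM in WT and 5.25, 5.999 and 4.64 FPKM in MG. Every MG value lay above every WT value, with a log2 fold change of 0.59 ± 0.31 (SE) that did not pass (limma adjusted p = 0.34, range 0.15 to 0.6 over 21 alternative fits). FPKM was summed over the whole gene, so exons that Cre does not remove still count, and the deposited locus is shared with another gene. This value therefore does not check the deletion. MG stands throughout for the libraries labelled so.

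The comparison asks what early loss of Mtor leaves different in the mRNA stored by full-grown oocytes. Of the 10064 genes, 39 passed the test (limma, Benjamini-Hochberg adjusted p under 0.05), or 0.388% of those tested. Of these, 21 were higher in MG (0.209%) and 18 were lower (0.179%). Each fold change was taken on log2(FPKM + 1), where low genes appear to change less than they do, and the smallest among the 39 was 0.87 in size. At an unadjusted p under 0.05, 871 genes (8.65%) were higher and 999 genes (9.93%) lower in MG. The 3 MG values all lay above the 3 WT values for 1195 genes (11.9%) and all below for 1053 genes (10.5%), and all 39 genes that passed were among these. The median log2 fold change over all tested genes was 0.04, with 5285 genes on the positive side and 4779 on the negative side.

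**Figure D1:**
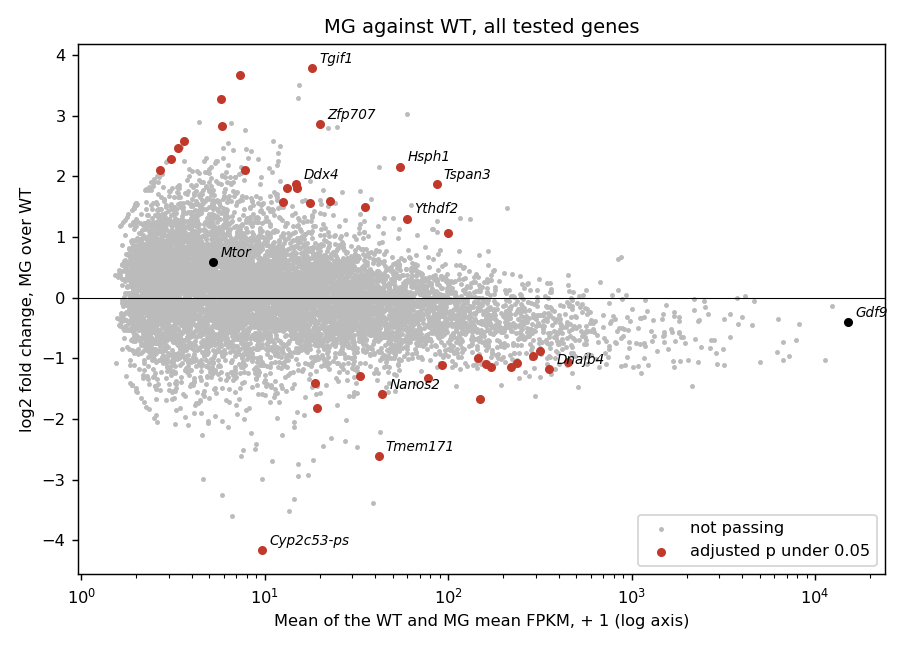
Each point is 1 of the 10064 tested genes, placed by the mean of its WT and MG mean FPKM plus 1 (log axis) and by its log2 fold change, MG over WT. The 21 higher genes among the 39 that passed (red) lie mostly at low levels, while the 18 lower genes lie mostly at high levels. Mtor and Gdf9 (black) did not pass.

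The count of genes fell whichever library was left out, also for the MZ libraries, which are not part of this contrast. Such fits also leave fewer residual degrees of freedom for the estimate of spread. Leaving out WT 1, WT 2 or WT 3 left 6, 11 and 4 genes, leaving out MG 2 or MG 3 left 6 and 24, leaving out MZ 1, MZ 2 or MZ 3 left 10, 10 and 15, and leaving out MG 1 left 30. A fit of the 6 MG and WT libraries alone called 5 genes, and weights fitted to each library called 122. When all libraries were brought to 1 FPKM sum, 67 genes were higher and 6 lower (91.8% higher, compared with 53.9% in the fit reported here). Upper quartile scaling gave 20 higher and 9 lower, quantile normalization 17 and 6, and cyclic loess normalization, added after seeing the data, 11 and 3. None of the 39 genes changed direction in any of the 22 alternative fits. As their MG values all lay on 1 side of their WT values, only the fits with another scaling or normalization could have reversed a gene. Hsph1 and Cyp2c53-ps passed in all 22, and 21 of the 39 genes lost the call in more than 12.

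Among genes of protein folding Hsph1 rose and Dnajb4 fell. Hsph1 (chromosome 5, 149614287 to 149636376, GRCm38, minus strand), a chaperone of the Hsp110 family that exchanges nucleotide on Hsp70 and helps to take apart aggregates, had 19.8, 24.8 and 13.5 FPKM in WT, 79.1, 92.97 and 91.6 FPKM in MG and 38.8, 34.5 and 47.97 FPKM in MZ. The MG libraries stood far above all others, and the MZ libraries lay between the 2 groups. The limma fit put its log2 fold change at 2.16 ± 0.24 (SE, adjusted p = 0.012, range 0.0047 to 0.046 over the 22 alternatives), and about 133 fragments in WT and 775 in MG lie behind it. Dnajb4 (chromosome 3, 152178511 to 152210302, minus strand), an Hsp40 co-chaperone that delivers clients to Hsp70, moved the other way, with 463, 446 and 563 FPKM in WT, 189, 216 and 243 FPKM in MG and 379, 359.5 and 368 FPKM in MZ. That gave Dnajb4 a log2 fold change of -1.18 ± 0.17 (SE) at a limma adjusted p of 0.02, and the call held in 11 of the 22 alternatives.

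Both genes belong to the heat shock family, whose promoters often carry inverted repeats of GAA bound by heat shock factors, so their start regions are shown. RefSeq windows on GRCm38.p6 hold 250 bases before and 50 after each annotated start, and they were searched on both strands for GAANNTTC or TTCNNGAA, each of which is its own reverse complement. Each of the 2 overlapping windows of Hsph1 holds the same 3 matches, of which 1 lies before the start and 2 after it overlap each other. Of the 2 windows of Dnajb4, which belong to separate starts, 1 holds a match. Capitals mark the match, which begins 33 bases before the start in Hsph1 (chr5:149636337-149636586, minus strand) and 14 bases before it in Dnajb4 (chr3:152193846-152194095, minus strand).
Hsph1: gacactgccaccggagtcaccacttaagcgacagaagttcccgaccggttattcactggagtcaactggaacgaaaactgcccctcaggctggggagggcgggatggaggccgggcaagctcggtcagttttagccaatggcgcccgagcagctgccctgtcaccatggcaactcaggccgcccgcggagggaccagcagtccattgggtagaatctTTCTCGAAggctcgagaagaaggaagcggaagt
Dnajb4: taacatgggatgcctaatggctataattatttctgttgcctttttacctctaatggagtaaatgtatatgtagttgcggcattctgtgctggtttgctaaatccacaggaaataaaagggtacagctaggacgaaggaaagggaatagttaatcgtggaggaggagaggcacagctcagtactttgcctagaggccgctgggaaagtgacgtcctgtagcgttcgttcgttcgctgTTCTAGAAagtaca
Of all 32851 windows 15.1% hold such a match, and so do 14.6% of the 7962 tested genes with a window. Of the 27 genes that passed and have a window, 3 hold one (11.1%), namely Hsph1, Dnajb4 and the transcription repressor Tgif1. Of 60 tested chaperone and co-chaperone genes with a window, 17 do (28.3%). Dnajb4 holds its match at only 1 of its 2 annotated starts, and which start the oocytes used was not tested. A match describes these letters only.

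Other chaperones did not pass. The list of Hsp110, Hsp70, Hsp90 and small heat shock proteins with their helpers had 40 tested members, a median log2 fold change of 0.30 beside 0.04 for all genes, and 28 members on the positive side. Its median stayed positive under each scaling, from 0.37 to 0.68. At an unadjusted p under 0.05 5 of the 40 were higher and 2 lower, beside 8.65% and 9.93% of all tested genes. Bag5, a nucleotide exchange factor of Hsp70, had 9.84, 10.8 and 8.93 FPKM in WT and 19.3, 19.3 and 22.9 FPKM in MG (limma adjusted p = 0.12). Bag4 and Ahsa1, an activator of Hsp90, had log2 fold changes of -0.58 and -0.45 (limma adjusted p = 0.21 and 0.22). The 36 tested DnaJ co-chaperones had a median of 0.05, with 1 higher and 6 lower at an unadjusted p under 0.05. Dnajc8, a splicing-associated member, had 192, 199 and 210.2 FPKM in WT and 137, 129 and 136 FPKM in MG without overlap (limma adjusted p = 0.11). The cytosolic chaperonin TRiC and its partner prefoldin had 15 tested members, 1 higher and 2 lower at that level, with a median of -0.14, among them Cct3 with means of 74.98 and 50.5 FPKM (limma adjusted p = 0.14). The chaperonin median was 0.24 when libraries were scaled to the same sum and 0.07 with cyclic loess, so its sign turned.

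Of the 28 tested germ-cell RNA regulators and piRNA genes, Ddx4 rose and Nanos2 fell. Ddx4 (chromosome 13, 112598333 to 112652475), the vasa RNA helicase of germ granules, had 4.35, 7.16 and 4.94 FPKM in WT, 24.3, 22.02 and 20.7 FPKM in MG and 3.36, 5.93 and 6.02 FPKM in MZ. Only the MG libraries were high. Nanos2 (chromosome 7, 18987400 to 18988962), an RNA-binding protein known for holding male germ cells out of meiosis, had 68.2, 65.9 and 59.3 FPKM in WT, 23.8, 22.6 and 16.3 FPKM in MG and 71.2, 66.9 and 54.01 FPKM in MZ. Here the MG libraries were low, and the WT and MZ libraries overlapped. Tex15, which passed but is not on that list, is needed for recombination and for piRNA-directed silencing in the male germ line and had 6.24, 9.06 and 8.35 FPKM in WT and 19.04, 29.9 and 27.6 FPKM in MG. The log2 fold changes were 1.87 ± 0.31, -1.59 ± 0.21 and 1.57 ± 0.26 (SE, limma adjusted p = 0.035, 0.018 and 0.039), and the calls held in 9, 17 and 9 of 22 alternatives. The list had a median of 0.07, with 4 higher and 3 lower at an unadjusted p under 0.05. Piwil2, a piRNA-binding Argonaute, had 0, 0.428 and 0 FPKM in WT and 2.25, 2.09 and 2.78 FPKM in MG (limma adjusted p = 0.096). Tdrd12, a Tudor protein of the piRNA pathway, had means of 60.2 and 34.8 FPKM (limma adjusted p = 0.14).

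Of the 73 tested genes for storage, translation control and decay of maternal mRNA, Ythdf2 rose and Cnot7 fell. Ythdf2, which reads N6-methyladenosine and directs marked mRNA to decay, had 27.2, 38.8 and 33.6 FPKM in WT and 100.5, 78.1 and 71.5 FPKM in MG. Lsm1, a subunit of the ring that promotes decapping, passed without being on that list and had 14.9, 24.96 and 13.9 FPKM in WT and 51.6, 52.4 and 47.6 FPKM in MG. In both genes the MG values lay well above the WT values, and MZ means of 46.9 and 22.9 FPKM lay between. Cnot7, a catalytic subunit of the Ccr4-Not deadenylase, had 441, 352 and 355 FPKM in WT, 177, 209 and 197 FPKM in MG and 413, 356 and 328 FPKM in MZ. Its deposited locus is shared with another gene, whose reads may be split with it. The log2 fold changes were 1.30 ± 0.22, 1.49 ± 0.24 and -0.97 ± 0.17 (SE, limma adjusted p = 0.039, 0.035 and 0.042), held in 9, 10 and 5 of 22 alternatives. The list had a median of 0.11, with 14 of 73 members higher and 7 lower at an unadjusted p under 0.05, beside 8.65% and 9.93% of all tested genes. Tob1, an adaptor of Ccr4-Not, had 6.37, 16.9 and 9.29 FPKM in WT and 38.9, 32.5 and 22.4 FPKM in MG (limma adjusted p = 0.083). Zar1l, a relative of the zygote arrest factor Zar1, had 693, 596 and 624 FPKM in WT and 480.5, 332 and 221 FPKM in MG (limma adjusted p = 0.1).

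Several genes that passed act on transcription and chromatin. Tgif1 (chromosome 17, 70844205 to 70853546), a homeobox repressor of Smad signalling, had 0, 1.82 and 3.78 FPKM in WT and 38.6, 31.2 and 26.9 FPKM in MG, on about 8 and 173 fragments. Zfp707 (chromosome 15, 75969123 to 75975868), a zinc finger gene, had 2.38, 5.21 and 4.05 FPKM in WT and 39.9, 39.2 and 23.8 FPKM in MG. Tceb3, which encodes elongin A, an elongation factor of RNA polymerase II, had 1.68, 2.77 and 1.43 FPKM in WT and 11.2, 9.76 and 13.9 FPKM in MG. These 3 genes were low in every WT library and clearly higher in every MG library. Sirt1 (chromosome 10, 63319005 to 63381704), an NAD-dependent deacetylase of histones and transcription factors, had 4.13, 7.93 and 5.28 FPKM in WT, 25.6, 19.4 and 21.8 FPKM in MG and 2.999, 4.61 and 4.28 FPKM in MZ. By limma the log2 fold change of Sirt1 was 1.81 ± 0.31 (SE, adjusted p = 0.039), and the call held in 8 of 22 alternatives. For Tgif1, Zfp707 and Tceb3 the log2 fold changes were 3.79 ± 0.52, 2.86 ± 0.38 and 2.10 ± 0.33 (SE, limma adjusted p = 0.019, 0.018 and 0.03).

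On the lower side stood Brdt, Mbd3l2 and Hist1h2bc. Brdt (chromosome 5, 107331159 to 107387058), a bromodomain protein of germ cells that reads acetylated histones, had 298, 282 and 327 FPKM in WT, 161, 135 and 118 FPKM in MG and 244, 243 and 233 FPKM in MZ. Mbd3l2, a relative of the methyl-DNA-binding protein Mbd3 with near copies beside it, had 214, 183 and 257 FPKM in WT and 84.3, 96.3 and 126 FPKM in MG. For Hist1h2bc, an H2B gene with near-identical copies that make its value uncertain, WT had 429, 418 and 370.1 FPKM and MG 239, 219 and 205 FPKM. In each of the 3 genes all MG libraries lay below every WT library. The log2 fold changes were -1.14 ± 0.17, -1.09 ± 0.20 and -0.87 ± 0.15 (SE, limma adjusted p = 0.022, 0.045 and 0.041), held in 10, 5 and 5 of 22 alternatives. The 69 tested chromatin-modifying enzymes had a median of 0.20, with 7 higher and 5 lower at an unadjusted p under 0.05. Kdm1b, a histone demethylase needed for maternal imprints, had 51.97, 75.7 and 38.6 FPKM in WT and 134, 122 and 91.4 FPKM in MG, and Hmgb2, a DNA-bending protein, had 214, 149.7 and 152 and 100.2, 80.1 and 58.1 FPKM (limma adjusted p = 0.084 and 0.063).

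Other genes that passed are on none of the lists and are described one by one. Tspan3 (chromosome 9, 56131725 to 56165477), a tetraspanin that organises membrane proteins, had 26.4, 39.95 and 42.8 FPKM in WT, 148, 147 and 108 FPKM in MG and 40.7, 41.05 and 49.9 FPKM in MZ. MG stood apart from both other groups. Lpar1, a receptor of lysophosphatidic acid whose locus is shared with another gene, had 4.903, 5.82 and 3.48 FPKM in WT and 14.2, 16.97 and 27.8 FPKM in MG. The glycosyltransferase genes B3gnt2 and B4galt4 passed in opposite directions. B3gnt2, which builds poly-N-acetyllactosamine chains, had 60.3, 66.1 and 62.1 FPKM in WT and 158, 135 and 110.4 FPKM in MG, and B4galt4, a galactosyltransferase, had 264, 206 and 233 FPKM in WT and 97.2, 115 and 105 FPKM in MG. The MZ libraries overlapped the WT libraries for both, at 57.02, 66.6 and 66.5 FPKM and 236, 252 and 228 FPKM. The log2 fold changes of Tspan3, Lpar1, B3gnt2 and B4galt4 were 1.87 ± 0.23, 1.81 ± 0.31, 1.07 ± 0.18 and -1.14 ± 0.16 (SE, limma adjusted p = 0.018, 0.039, 0.039 and 0.022). Tmem171, a membrane protein gene, had 71.6, 48.2 and 90.5 FPKM in WT, 9.74, 5.61 and 18.9 FPKM in MG and 28.9, 20.2 and 44.5 FPKM in MZ, and by limma a log2 fold change of -2.62 ± 0.42 (SE, adjusted p = 0.031).

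The genes Aldh1a2, Stard5, Cyb5a and Mcu, which act in metabolism and ion transport, passed and were lower in MG. Aldh1a2 (chromosome 9, 71215789 to 71296243), which makes retinoic acid from retinal, had 34.7, 27.04 and 24.9 FPKM in WT, 8.45, 5.71 and 8.27 FPKM in MG and 15.9, 16.96 and 16 FPKM in MZ. Stard5, a carrier of sterols between membranes, had 32.2, 21.4 and 25.99 FPKM in WT and 9.803, 9.84 and 8.23 FPKM in MG. Cyb5a, the cytochrome b5 that passes electrons to desaturases, had 351, 280.3 and 337 FPKM in WT and 152, 172 and 132 FPKM in MG. For Mcu, the pore of the mitochondrial calcium uniporter, WT had 128, 109.9 and 137 FPKM and MG 52.6, 49.4 and 70.8 FPKM. Every one of these genes was lower in each MG library than in any WT library. In the order named, the log2 fold changes were -1.82 ± 0.25, -1.41 ± 0.24, -1.08 ± 0.19 and -1.12 ± 0.20 (SE, limma adjusted p = 0.018, 0.039, 0.041 and 0.049). The calls held in 17, 6, 5 and 4 of 22 alternatives.

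**Figure D2:**
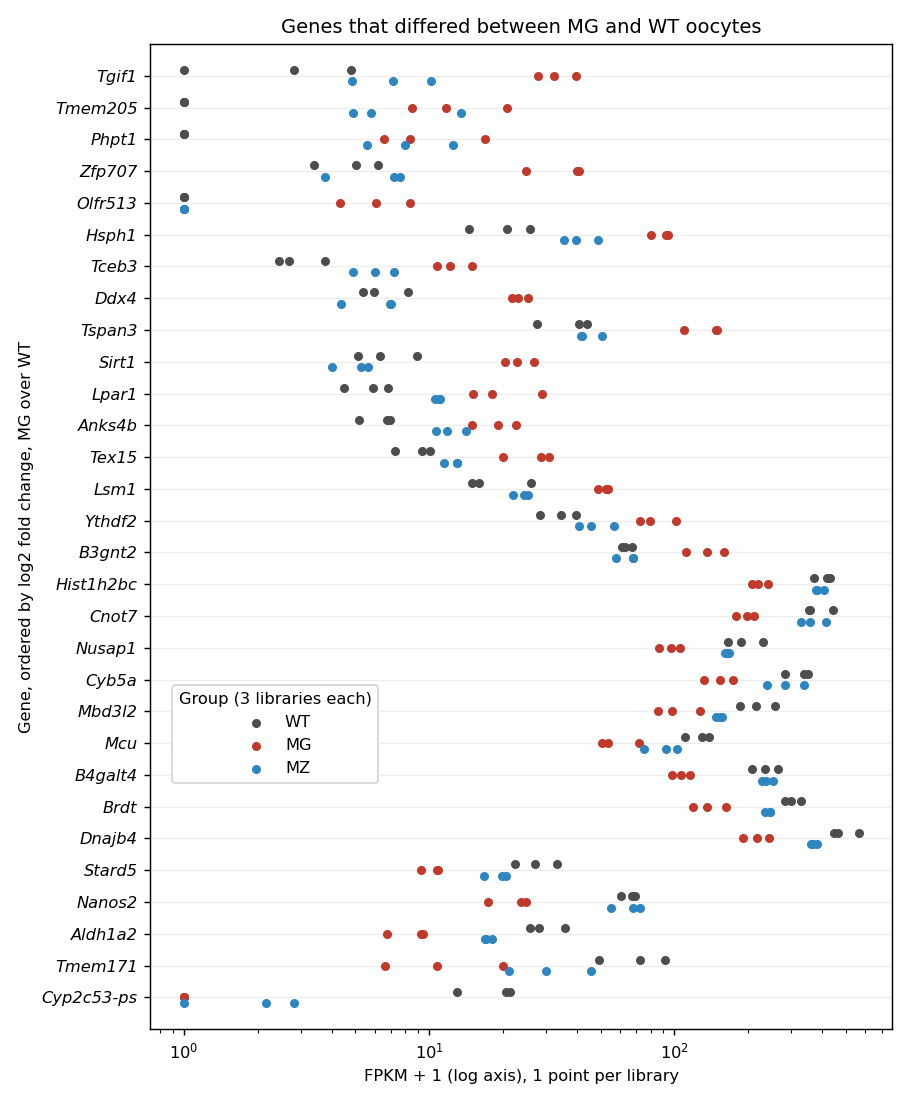
FPKM plus 1 (log axis) in each library for 30 named genes that passed and whose higher group has a mean of at least 5 FPKM, ordered by log2 fold change, with 1 point per library and 3 libraries per group. In every row the red MG points lie on 1 side of all grey WT points, and the blue MZ points lie between them, beside WT or, as in Phpt1, Tmem205 and Cyp2c53-ps, near MG.

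Nusap1, a protein that binds and bundles spindle microtubules, fell as well, with 229, 164 and 185 FPKM in WT and 105, 96.1 and 85.6 FPKM in MG (log2 fold change -1.0 ± 0.17, SE, limma adjusted p = 0.042, held in 5 of 22 alternatives). Its locus is shared with another gene. Anks4b, a scaffold protein known from brush borders, rose from 4.18, 5.72 and 5.92 FPKM in WT to 18.1, 13.96 and 21.6 FPKM in MG (limma adjusted p = 0.043). Cyp2c53-ps (chromosome 19, 39229254 to 39274985), a transcribed pseudogene whose reads could belong to related Cyp2c genes, had 20.4, 12.01 and 19.6 FPKM in WT, was listed at 0 in all 3 MG libraries and had 1.81, 1.16 and 0 FPKM in MZ (limma adjusted p = 0.012). About 31 fragments support it in WT.

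Genes listed at 0 in all WT libraries made up 6 of the 21 higher genes. A listed 0 may reflect a failed estimate, and no fold change is given for them. Phpt1, a phosphohistidine phosphatase, was at 7.34, 5.54 and 15.8 FPKM in MG and 6.995, 4.58 and 11.5 FPKM in MZ. Tmem205, which shares a locus, was at 19.7, 7.496 and 10.8 FPKM in MG and 4.78, 12.4 and 3.89 FPKM in MZ. Both were thus present in every library of the other 2 groups. Olfr513, an olfactory receptor gene with related copies, was at 3.32, 5.08 and 7.32 FPKM in MG and listed at 0 in MZ as well. Phlda1, a pleckstrin homology-like protein, was at 6.31, 2.92 and 4.94 FPKM and Gpkow, a spliceosome-associated protein, at 1.91, 4.92 and 5.71 FPKM in MG. In MZ, Phlda1 was at 1.26, 0.81 and 1.01 FPKM and Gpkow at 0.639, 0.818 and 0.507 FPKM, below all their MG values. The sixth was the long noncoding RNA 2810013P06Rik, at 3.63, 3.73 and 2.701 FPKM in MG. Its MZ values were similar, at 3.63, 4.65 and 2.89 FPKM. The 6 genes rest on between 12 and 33 fragments over the 3 MG libraries. Among all 24228 genes, 44 were listed at 0 in all WT and had at least 1 FPKM in all MG libraries, and 20 genes showed the reverse. Between WT and MZ the corresponding numbers were 25 and 20.

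Genes with clone names completed the list of 39. Higher in MG were 2210019I11Rik and Gm3139, which both share a locus. The antisense transcript 2210019I11Rik had 0, 1.72 and 0 FPKM in WT and 7.29, 9.82 and 10.1 FPKM in MG. Gm3139, a multi-copy gene, had 9.42, 10.3 and 10.7 FPKM in WT and 35.1, 40.1 and 25 FPKM in MG. Lower were 2210406O10Rik (a long noncoding RNA, 134, 102 and 92.8 and 35.8, 56.2 and 38.5 FPKM), 7420426K07Rik (348, 131 and 212 and 57.3, 77.5 and 64.8 FPKM) and the processed pseudogene Gm5434 (604, 554 and 669 and 319.5, 307 and 253 FPKM), whose reads may come from its parent gene. Just outside the threshold stood Abcd3, a peroxisomal transporter (0.579, 1.27 and 0.657 FPKM in WT and 8.03, 9.31 and 12 in MG, limma adjusted p = 0.05), Gm29811 (0.051), the elongation factor subunit Eef1d (51.2, 47.1 and 35.1 and 18.7, 19.2 and 11.3 FPKM, 0.051), the spindle protein Haus3 (795, 622 and 869 and 416, 383 and 384 FPKM, 0.052) and Tmx2 (0.052). Just inside were Anks4b, 7420426K07Rik, Gpkow, Mbd3l2 and Mcu, at adjusted p = 0.043 to 0.049. The 5 on each side are thus separated by little. Of those outside, Haus3 and Tmx2 share their deposited locus with another gene.

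The difference between MG and WT changed with the abundance of the transcript. Genes were placed by their mean FPKM in MZ, which belongs to neither group compared. The median log2 fold change was 0.28 in the 3244 genes with 1 to 5 FPKM, 0.14 in the 1590 genes with 5 to 10, 0.00 in the 2084 genes with 10 to 30, -0.19 in the 1380 genes with 30 to 100, -0.35 in the 539 genes with 100 to 300, -0.53 in the 243 genes with 300 to 1000 and -0.65 in the 99 genes over 1000 FPKM. Rare transcripts thus leaned to the positive side and abundant ones to the negative side. Of the 99 genes over 1000 FPKM, 2 had a positive log2 fold change and 57 were lower at an unadjusted p under 0.05, beside 9.93% of all genes. Among the 3244 genes of 1 to 5 FPKM, 2161 had a positive value, 384 were higher and 82 lower at an unadjusted p under 0.05. In the 885 genes of at most 1 FPKM in MZ, which entered through their WT or MG values, the median was 0.30. More genes reached 1 FPKM in each MG library (10267, 9889 and 9931) than in any WT library (9265, 9607 and 9558). In the tier of 1 to 5 FPKM, too, genes can therefore have entered through their MG values. The part of this entry in the medians of the low tiers was not tested.

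The gradient was present in each MG library and steepest in MG 3. Over 1000 FPKM the median of log2(FPKM + 1) minus the WT mean was -0.32 in MG 1, -0.50 in MG 2 and -1.10 in MG 3, compared with 0.20, 0.17 and 0.11 in the MZ libraries and 0.23, -0.21 and -0.04 in the WT libraries themselves. Between 1 and 5 FPKM it was 0.32, 0.30 and 0.33 in the MG libraries and 0.00, 0.05 and 0.13 in the MZ libraries. MG thus lay outside the range of both other groups at either end. Without MG 3 the medians ran from 0.27 at 1 to 5 FPKM to -0.42 over 1000 FPKM. Scaled to the same FPKM sum they ran from 0.54 to -0.26, which moves the point where the sign turns but not the order of these tiers, and that scaling put the median of all genes at 0.37. Upper quartile scaling gave 0.33 and -0.57. Quantile and cyclic loess normalization, which force the libraries toward 1 shape, gave 0.06 and -0.09, and 0.02 and -0.01. The gradient was thus much smaller with quantile normalization, although still in the same direction, and close to 0 at both ends with cyclic loess. At low levels the value also depends on the pseudocount, with 0.42 at 1 to 5 FPKM for a pseudocount of 0.1 and 0.12 for a pseudocount of 5.

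**Figure D3:**
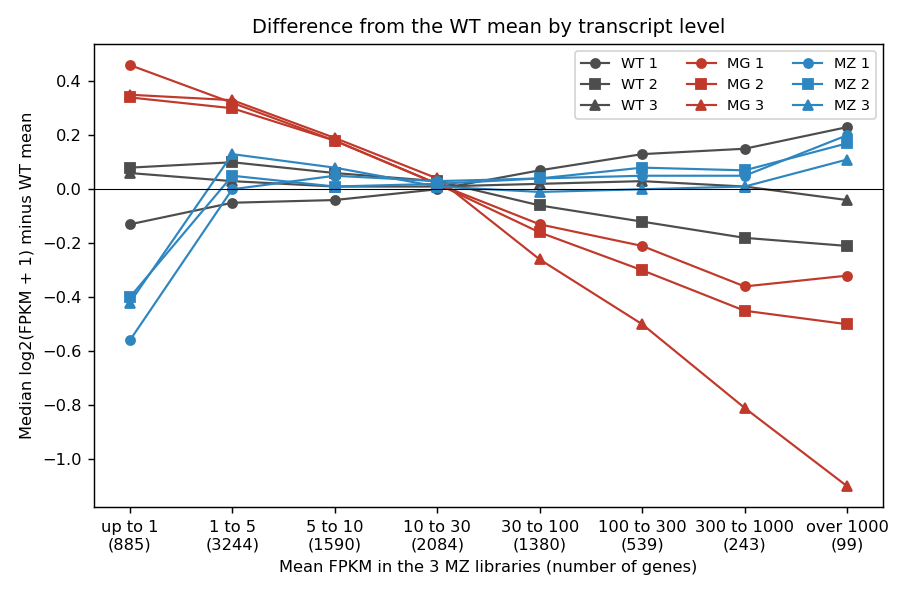
Median of log2(FPKM + 1) minus the WT mean for genes in 8 tiers of their mean FPKM in MZ (number of genes in brackets), with 1 line per library. The red MG lines fall from between 0.30 and 0.33 at 1 to 5 FPKM to between -0.32 and -1.10 in the most abundant genes, while the grey WT and blue MZ lines stay within 0.23 of 0 above 1 FPKM. MZ falls below 0 in the first tier, whose genes are low in MZ by the way the tier is defined.

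The same shift appears in how the transcript pool is divided. The 100 genes most abundant in MZ took 48.2%, 44.5% and 45.1% of the FPKM sum in WT libraries, 43.6%, 42.3% and 34.8% in MG libraries and 48.4%, 47.6% and 47.7% in MZ libraries. The top 1000 genes took 82.3%, 78.5% and 79.8% in WT and 76.8%, 75.8% and 69.7% in MG. All MG shares lay below all WT shares in both cases. FPKM above 0 was listed for 10924, 11180 and 11067 genes in WT and for 11682, 11615 and 12097 in MG. In MZ it was listed for 10670, 11749 and 11865 genes. More genes were thus seen in each MG library than in any WT library, but MZ 2 and MZ 3 exceeded MG 1 and MG 2. The fragments that scale the FPKM were estimated at 542700, 494200 and 482400 in WT and 481700, 621000 and 846600 in MG. By this estimate MG 1 was the shallowest of the 6 and MG 2 and MG 3 were the deepest. The part of depth in these gene counts was not tested. The fragments in genes were 1.53, 1.30 and 1.41 times those that scale the FPKM in WT and 1.23, 1.18 and 1.04 times in MG. This ratio, an estimate from the FPKM steps, moved with the groups, and its part in the gradient was not tested.

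Transcript length ran along with the difference too. By the longest annotated transcript, the median log2 fold change was -0.29 in the 248 genes of up to 800 bp, -0.22 up to 1500 bp, -0.12 up to 2500 bp, 0.01 up to 4000 bp, 0.16 up to 6000 bp and 0.27 in the 1263 longer genes. Long transcripts thus leaned to the positive side and short ones to the negative side. Among genes over 30 FPKM in MZ the medians were -0.39 for 800 to 1500 bp and -0.04 over 6000 bp, and among genes of 30 FPKM or less they were -0.05 and 0.30, so both level and length moved with the difference. In MG 1 the step from the 800 to 1500 bp genes to those over 6000 bp was from -0.04 to 0.16, and in MG 3 from -0.29 to 0.42. Its part in the results for short-transcript families was not tested. Position in the genome showed little, with chromosome medians between -0.03 and 0.09 except for 0.18 in the 320 X-linked genes. The 21 higher genes had a median MZ level of 7.03 FPKM and a median transcript of 3012 bp, and the 18 lower genes 135.2 FPKM and 2190 bp, beside 7.41 FPKM and 3195 bp for all tested genes.

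Gene lists are described by their medians and counts, and comparisons with the median of all genes carry no test. Each count at an unadjusted p under 0.05 stands beside 8.65% of all tested genes higher and 9.93% lower. When libraries were brought to 1 FPKM sum, every list median was positive except those of cytosolic ribosomal proteins (-0.08), respiratory complexes II to V (-0.08), oocyte-secreted factors (-0.04) and histones (-0.23), beside 0.37 for all genes.

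The mTOR pathway itself was examined by a list of 66 components of the complexes and their regulators, of which 55 were tested. Of these 0 passed by limma, while 4 were higher and 6 lower at an unadjusted p under 0.05, and the median was 0.22. Mapkap1, the Sin1 subunit of the Rictor complex, had 47.1, 36.3 and 46.2 FPKM in WT and 13.98, 24.5 and 16.9 FPKM in MG (log2 fold change -1.21 ± 0.26, SE, limma adjusted p = 0.067). Rraga, a Rag GTPase that recruits the kinase to lysosomes, had 735, 529 and 633 FPKM in WT and 475, 415 and 399.7 FPKM in MG (limma adjusted p = 0.14). Both were lower in every MG library without passing. Prkaa2, a catalytic subunit of AMP-activated kinase, had 2.06, 1.76 and 2.34 FPKM in WT and 3.43, 4.496 and 6.97 FPKM in MG (limma adjusted p = 0.2), and Seh1l, a member of the amino acid-sensing GATOR complex, had means of 6.04 and 12.7 FPKM (0.21). With cyclic loess normalization the median of the list was 0.00.

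Transcripts of the translation machinery, which mTOR regulates mainly at the step of translation, were next. For the 63 tested cytosolic ribosomal protein genes the median was -0.47, with 46 negative, 0 higher and 10 lower at an unadjusted p under 0.05, and 0 passed by limma. The libraries did not move as 1: the list's median against the WT mean was 0.26 in MG 1, -0.27 in MG 2 and -0.90 in MG 3, and -0.11 without MG 3. Rpl39, a small protein of the large ribosomal subunit, had 532, 354 and 227 FPKM in WT and 199.6, 146 and 112 FPKM in MG (limma adjusted p = 0.098). It shares its locus, and ribosomal protein genes have many processed copies, so its value is uncertain. Mitochondrial ribosomal proteins (77 tested) had a median of -0.17 (0.20 with scaling to the same sum), with 2 higher and 11 lower at an unadjusted p under 0.05. Mrps35 had 51.4, 45.8 and 36.96 FPKM in WT and 18.9, 12.4 and 11.96 FPKM in MG, and Mrpl42 had 0, 10.5 and 0 and 28.2, 17.1 and 30.7 FPKM, close to the threshold in opposite directions (limma adjusted p = 0.054 and 0.073).

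Initiation and elongation factors (55 tested) had a median of -0.21 (0.17 with scaling to the same sum), with 3 higher and 13 lower at an unadjusted p under 0.05 and 0 passing by limma. Eef1e1, a scaffold of the tRNA synthetase complex, had 212, 191 and 226 FPKM in WT and 149, 134 and 131 FPKM in MG. Eif1a, which helps to select the start codon, had 2.101, 2.303 and 0.794 FPKM in WT and 12.1, 5.63 and 7.704 FPKM in MG (limma adjusted p = 0.1 and 0.097). The 26 aminoacyl-tRNA synthetases and the 50 genes of ribosome biogenesis and RNA polymerase I both had a median of 0.08. Among them Ubtf, a transcription factor of ribosomal DNA, had 0, 0.953 and 0.493 FPKM in WT and 6.52, 3.49 and 3.096 FPKM in MG (limma adjusted p = 0.073), and Nars, which charges tRNA with asparagine, had means of 30.4 and 47.3 FPKM (0.19). Neither list held a gene that passed by limma, and at an unadjusted p under 0.05 they held 2 and 5 higher and 1 and 4 lower members. The median of the synthetases turned to -0.02 with cyclic loess.

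Proteasome genes, whose products degrade ubiquitin-tagged proteins, had 44 tested members with a median of -0.33 and 35 negative values. Of these 0 were higher and 9 lower at an unadjusted p under 0.05, beside 8.65% and 9.93% of all tested genes, and 0 passed by limma. The core subunits Psma7 and Psmb7 had 68.6, 77.6 and 68.3 and 77.5, 58.1 and 81.6 FPKM in WT and 34.96, 38.95 and 17.4 and 46.4, 37.9 and 23.9 FPKM in MG (limma adjusted p = 0.073 and 0.092). The list's median was negative in each MG library, at -0.26, -0.23 and -0.44, and at 0.03 when libraries were scaled to the same sum. Its members were abundant, with a median of 39.5 FPKM in MZ. All 1380 genes of 30 to 100 FPKM had a median of -0.19, with 246 lower and 47 higher at that level of p.

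Genes of mitochondrial respiration showed a similar picture. Complex I (37 tested) had a median of -0.27 and complexes II to V (41 tested) one of -0.42, with 6 and 7 lower and 1 and 2 higher at an unadjusted p under 0.05. Scaled to the same sum the medians were 0.10 and -0.08, so that of complex I turned. Ndufb9, an accessory subunit of complex I, had 76.5, 71.4 and 51.6 FPKM in WT and 23.7, 17.9 and 28.9 FPKM in MG. Uqcrh, a hinge subunit of complex III, had 253, 169.7 and 202 FPKM in WT and 118, 145 and 94.4 FPKM in MG. Neither passed (limma adjusted p = 0.095 and 0.1). Most of these transcripts are short, with a median longest transcript of 1001 bp for complexes II to V, and in MG 1 the 2 medians were 0.04 and 0.01. Enzymes of glycolysis, the pentose phosphate pathway and the TCA cycle (39 tested) had a median of -0.01, with 4 higher and 1 lower at an unadjusted p under 0.05. G6pdx, the first enzyme of the pentose phosphate pathway, had 446, 299 and 318 FPKM in WT and 259, 259 and 147 FPKM in MG (limma adjusted p = 0.17). Synthesis of sterols and fatty acids (26 tested) had 3 higher and 4 lower members at that level and a median of 0.11 (-0.03 with cyclic loess), with Sc5d, a late sterol desaturase, at 92.5, 77 and 95.5 FPKM in WT and 52.4, 44.5 and 55.6 FPKM in MG (limma adjusted p = 0.076).

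The histone genes had the lowest median of the lists, at -0.60 over 33 tested members with 23 negative. Scaling to the same sum left it at -0.23 and cyclic loess at -0.49. With Hist1h2bc included, 10 members were lower and 1 higher at an unadjusted p under 0.05. Hist1h2bg, another H2B copy, had 216, 170.4 and 228 FPKM in WT and 75.3, 121 and 92.2 FPKM in MG (limma adjusted p = 0.067). The member on the other side, the variant histone gene H2afz, had 2.34, 12.7 and 26.4 FPKM in WT and 54.1, 33.2 and 23.9 FPKM in MG (limma adjusted p = 0.21), with overlap. Histone copies are near-identical and their reads may be split.

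**Figure D4:**
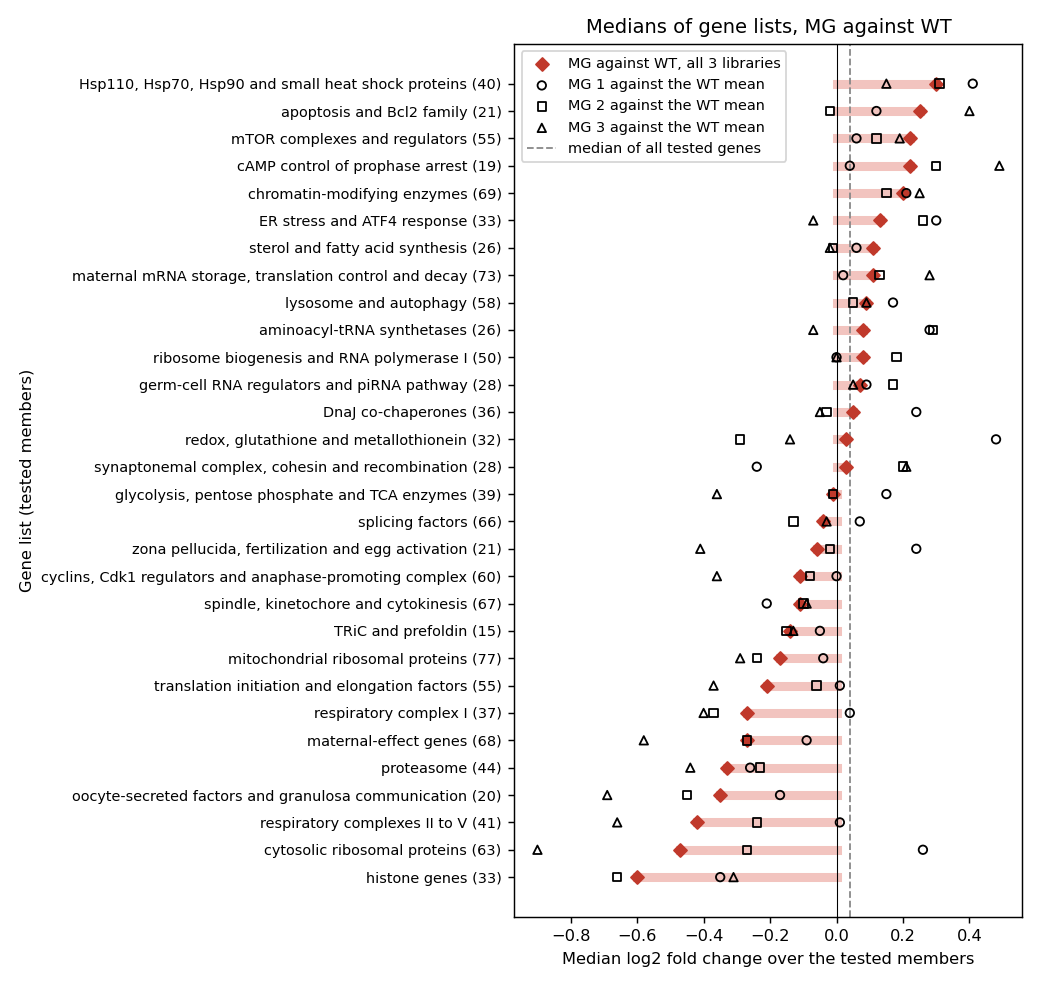
Median log2 fold change (red diamond, bar from 0) of the 30 gene lists with at least 15 tested members, with the number tested in brackets, and the median of each MG library against the WT mean (open symbols). The dashed line marks the median of all tested genes, 0.04. Histones, cytosolic ribosomal proteins and respiratory complexes II to V lie lowest, at -0.60 to -0.42, and the MG libraries are widely spread in ribosomal proteins, from 0.26 in MG 1 to -0.90 in MG 3.

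Oocyte functions were taken in the order of signals, fertilization and maternal effect. Oocyte-secreted factors and genes for contact with granulosa cells (20 tested) had a median of -0.35 with 17 negative, and 0 were higher and 2 lower at an unadjusted p under 0.05. Gja4, the connexin of the gap junctions between oocyte and granulosa cells, had 2151, 999 and 997 FPKM in WT and 995, 606 and 330.1 FPKM in MG. Oosp2, a secreted oocyte protein, had 764, 538 and 519 FPKM in WT and 406, 329.8 and 373 FPKM in MG. Neither passed (limma adjusted p = 0.16 and 0.12), although all MG values lay below all WT values. Genes of the zona pellucida, fertilization and egg activation (21 tested) had a median of -0.06 (0.02 with upper quartile scaling), and 4 higher and 4 lower at an unadjusted p under 0.05. Cd9, a tetraspanin needed for sperm fusion, had 42.2, 105 and 54.6 FPKM in WT and 198, 180.4 and 108 FPKM in MG, and Plat, tissue plasminogen activator, had 1700, 1320 and 1569 and 1110, 852 and 465 FPKM (limma adjusted p = 0.1 and 0.12).

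Maternal-effect genes, whose stored products support the early embryo, had 68 tested members with a median of -0.27. At an unadjusted p under 0.05, 22 were lower and 4 higher, beside 9.93% and 8.65% of all tested genes, and Mbd3l2 passed. These transcripts are very abundant, with a median of 216 FPKM in MZ. All 539 genes of 100 to 300 FPKM had a median of -0.35, with 182 lower and 8 higher at that level of p. With cyclic loess the list's median was 0.03 and with scaling to the same sum 0.12. Dnmt3l, a partner of the DNA methyltransferases that set maternal imprints, had 144, 112 and 176 FPKM in WT and 78.2, 91.05 and 67.3 FPKM in MG (limma adjusted p = 0.098). Nlrp4c had 5.44, 5.37 and 8.03 FPKM in WT and 15.7, 11.7 and 15.5 FPKM in MG (limma adjusted p = 0.11). Transcripts known from early embryo activation, which a prophase oocyte should hold at low levels, had 9 of 20 members tested and a median of 0.11 (-0.12 with cyclic loess). Arg2, a mitochondrial arginase on that list, had 447, 346 and 403 FPKM in WT and 227, 206 and 119 FPKM in MG (limma adjusted p = 0.067).

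Meiotic arrest and division were covered by 4 lists. Genes of the cAMP system that holds prophase arrest (19 tested) had a median of 0.22 with 16 positive, and stayed positive under each scaling, from 0.30 to 0.60. Prkx, a relative of protein kinase A, had 0.6196, 2.04 and 1.41 FPKM in WT and 4.29, 5.53 and 5.62 FPKM in MG (limma adjusted p = 0.1). Gpr3, the receptor that keeps oocyte cAMP high, had 34.3, 25.8 and 32.2 FPKM in WT and 19.2, 27.97 and 10.1 FPKM in MG (limma adjusted p = 0.23). Cyclins, Cdk1 regulators and the anaphase-promoting complex (60 tested) had a median of -0.11 (0.04 with cyclic loess), with 5 higher and 10 lower at an unadjusted p under 0.05. Aurka, the kinase of spindle poles, had 285, 216 and 245 FPKM in WT and 133, 144 and 97.4 FPKM in MG, just outside the threshold (limma adjusted p = 0.054). Ccne2, an E-type cyclin, had 12.6, 11.6 and 14.5 FPKM in WT and 26.7, 29.1 and 26.6 FPKM in MG (limma adjusted p = 0.073). Spindle, kinetochore and cytokinesis genes (67 tested) had a median of -0.11, with Nusap1 passing and 13 lower and 4 higher at an unadjusted p under 0.05. Genes of the synaptonemal complex, cohesin and recombination (28 tested) had a median of 0.03 and 2 higher and 3 lower members at that level. Trp63, which guards oocyte genome quality, had 1.69, 5.28 and 4.78 FPKM in WT and 9.74, 11.6 and 10.2 FPKM in MG (limma adjusted p = 0.13).

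Stress, turnover and survival lists held no gene that passed by limma. Lysosome and autophagy genes (58 tested), which mTOR restrains through the factor Tfeb, had a median of 0.09 with 1 higher and 1 lower at an unadjusted p under 0.05, below the 8.65% and 9.93% of all genes. The ER stress and ATF4 list (33 tested) had a median of 0.13, with 4 higher and 4 lower at that level. Xbp1, a transcription factor of the unfolded protein response, had 0.938, 1.03 and 1.06 FPKM in WT and 9.76, 9.21 and 1.82 FPKM in MG, and Mthfd2, a mitochondrial folate enzyme and ATF4 target, had 159.7, 135 and 114 and 62.3, 83.4 and 75.5 FPKM (limma adjusted p = 0.14 and 0.077). The redox, glutathione and metallothionein list (32 tested) had 2 higher and 4 lower members and a median of 0.03 (-0.03 with cyclic loess), with Nqo1, a target of the antioxidant factor Nrf2, at 2.88, 7.86 and 3.26 FPKM in WT and 14.96, 17.9 and 12.04 FPKM in MG (limma adjusted p = 0.093). For the apoptosis and Bcl2 family (21 tested) the median was 0.25, with 2 higher and 4 lower. Bcl2l10, the main family member of the oocyte, had 9675, 7237 and 8064 FPKM in WT and 5601, 5887 and 3740 FPKM in MG (limma adjusted p = 0.13), and Mcl1, a survival factor, had 5.101, 3.11 and 5.15 and 13.8, 9.62 and 8.44 FPKM (limma adjusted p = 0.19). Splicing factors (66 tested) had a median of -0.04, with 5 higher and 6 lower.

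Markers of other ovarian cells were mostly low. Of 32 granulosa and cumulus markers 10 reached the filter, 4 of them higher and 1 lower at an unadjusted p under 0.05, with a median of 0.74. Among the higher ones, Kitl and Hsd3b1 entered through their MG values, as most of their WT values lay below 1 FPKM. The count and the median can therefore lean to the higher side through the way members entered. The summed level of the 32 markers was 359.7, 389 and 483 FPKM in WT and 408, 339 and 360.4 FPKM in MG, so it overlapped. Serpine2, a secreted protease inhibitor, and Esr2, an oestrogen receptor, made up most of it, with means of 288 and 212 FPKM and of 85.5 and 106 FPKM in WT and MG. Foxl2, Amhr2 and the luteinizing hormone receptor gene Lhcgr were listed at 0 in all 9 libraries, Amh was at 0 in WT, and Fshr had means of 2.25 and 1.27 FPKM. Kitl, the granulosa ligand of the oocyte receptor Kit, had 0.3504, 1.15 and 0.398 FPKM in WT and 4.05, 2.505 and 6.36 FPKM in MG (limma adjusted p = 0.096). Cyp19a1, the 1 lower marker, had 16.5, 25.7 and 25.6 FPKM in WT and 8.03, 13.2 and 18 FPKM in MG, with overlap (limma adjusted p = 0.21). Theca, stroma and endothelial markers (10 of 16 tested) summed to 50.2, 44.3 and 60.4 FPKM in WT and 95.8, 53.5 and 46.01 FPKM in MG, with Cyp17a1 at 0 in both groups. Blood and immune markers (5 of 16 tested) summed to 71.6, 62.3 and 80.8 and 162, 51.3 and 41.7 FPKM. They were highest in MG 1, where Lyz2, a lysozyme of macrophages, had 113 FPKM, beside 29.5 and 22.8 in MG 2 and MG 3 and 40.4, 36.2 and 43.02 in WT. H2-Aa, on the same list, was lower in every MG library, with 14, 5.09 and 10.6 FPKM in WT and 2.7, 4.15 and 1.5 FPKM in MG (limma adjusted p = 0.15). The part of these cells in the results was not tested.

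The difference between MG and MZ was tested for the 39 genes. MG libraries enter both contrasts, so the 2 are not independent. In the fit of MG against MZ 12 of the 10064 genes passed (0.119%), of which 7 were among the 39, namely Zfp707, Olfr513, Sirt1, Ddx4 and Tspan3 on the higher side and Nanos2 and B4galt4 on the lower. Ddx4 and Sirt1 were at 5.102 and 3.96 FPKM in MZ, beside 5.48 and 5.78 FPKM in WT and 22.3 and 22.3 FPKM in MG. For the other 32 genes the difference did not pass, which does not show that the 2 deletions act alike. Hsph1 was one of them, with 40.4 ± 6.9 FPKM in MZ (SD, n = 3), a log2 difference of 1.11 and an adjusted p of 0.077 by limma.

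The authors' deposited table gives q under 0.05 for 446 of the 10064 genes in this comparison (4.43%), 117 with a higher and 329 with a lower mean in MG. Of these 446, 409 had an unadjusted limma p under 0.05 and 327 had no overlap between the groups. Of the 39 genes, 27 are among them, and 10 have a deposited q of 1 in the authors' deposited table. These 10 are Cyp2c53-ps, Tceb3, Anks4b, Phpt1, Tmem205, Olfr513, Phlda1, Gpkow, 2810013P06Rik and 2210019I11Rik. Whether such a q stands for a gene left untested was not checked. The 446 had a median MZ level of 65.5 FPKM, beside 7.41 FPKM for all tested genes, so the authors' calls lay among abundant transcripts.

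**Figure D5:**
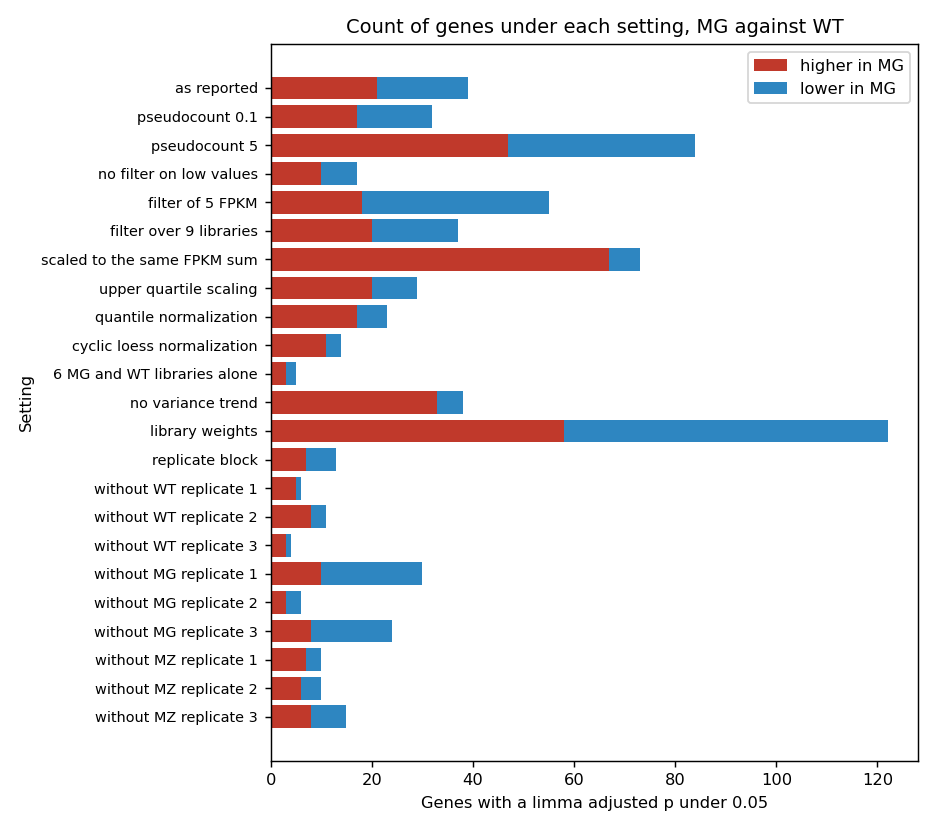
Number of genes with a limma adjusted p under 0.05 for MG against WT as reported and under 22 alternative settings, divided into genes higher (red) and lower (blue) in MG. The count ranges from 4 without WT replicate 3 to 122 with library weights, and scaling to the same FPKM sum gives the most one-sided split, 67 higher and 6 lower.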

How the data were processed

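Oocyte RNA was amplified by Smart-seq2 and libraries were built with a NEBNext Ultra kit, per the labels' protocols, and sequenced in 150 bp read pairs. Reads were aligned to mm10 with TopHat2 2.0.13 and quantified with Cufflinks 2.2.1, per the submitters' processing notes. The deposited values are FPKM, which the authors computed per gene and library. The deposited p-values and q-values come from the authors' Cuffdiff run. The treatment of strand was not given in the sources used here.

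Of 24255 rows, 27 with symbols turned into dates were left out, and 23710 (97.9%) of the rest matched GENCODE M21, which gave coordinates (1-based) and lengths. Of the tested genes, 2036 (20.2%) share their deposited locus with another gene, which is not marked for every gene named. Genes at 1 FPKM or more in at least 3 of the 6 WT and MG libraries were fitted as log2(FPKM + 1) with limma 3.58.1 in R 4.3.3 (lmFit, eBayes with trend), all 9 libraries in 1 fit with 6 residual degrees of freedom. Tests were two-sided and adjusted by Benjamini-Hochberg over all 10064 genes. Count models were not used, since FPKM are normalized. Fragment numbers were estimated from the steps of low FPKM values, of which 69.4% to 78.7% per library lay within 5% of 1 fragment, and cover counting error only. The fit was tested on simulated data that held no shift by transcript level or length, so that test does not cover these features.

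The comparison, its members and the 34 gene lists were chosen with earlier results of these data known. Named were Mtor, Gdf9 and Zp3, markers, each gene that passed, the 5 nearest the threshold on each side, and per list up to 2 members per direction with the smallest unadjusted p under 0.05. Genes that passed are given with the values of every library where their higher group reached 5 FPKM, and clone names more briefly. Values of clone-named genes, Phlda1, Gpkow, Serpine2, Esr2 and Lyz2 were added after they were seen. Not every gene that the rule takes is reported here. Alternatives covered pseudocount, filter, scaling, variance model, libraries in the fit, a replicate block and each library left out.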

Additional observations from a re-analysis of the deposited data

Results flagged for a closer look

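For 7 of the 39 genes that passed between MG and WT, the test of MG against MZ also passed, so the level in MG differed from that in both other groups. The log2 differences MG minus MZ were 2.55 for Zfp707, 2.23 for Sirt1, 1.96 for Ddx4 and 1.59 for Tspan3, all higher in MG. They were -1.17 for B4galt4 and -1.58 for Nanos2, both lower in MG. Olfr513 was listed at 0 in all MZ and WT libraries, so no difference is given for it. The limma adjusted p was 0.042 for Ddx4 and 0.034 for the other 6, and all 3 MG values lay on 1 side of all 3 MZ values in each gene. The same MG libraries stand in both contrasts, so these tests are not independent of the choice of the 39 genes. The count of 7 became 0 without WT 2, WT 3, MG 2, MG 3 or any 1 of the MZ libraries. Without MG 1 it was 14, and without WT 1 it was 18.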

How the results depend on the processing

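The count of genes that passed between MG and WT was 39. It was 32 with a pseudocount of 0.1 and 84 with a pseudocount of 5, 17 without a filter, 55 with a filter of 5 FPKM, 37 with the filter over 9 libraries, 73 with scaling to the same FPKM sum, 29 with upper quartile scaling, 23 with quantile normalization, 14 with cyclic loess (added after seeing the data), 5 with the MG and WT libraries alone, 38 without a variance trend (33 higher and 5 lower) and 122 with library weights. Leaving out 1 library gave between 4 and 30 genes. The count of these genes that also differed between MG and MZ was 7. It was 3 and 11 with pseudocounts of 0.1 and 5, 4 without a filter, 2 without a variance trend and 30 with library weights. Without WT 1 or MG 1 it was 18 and 14, and it was 0 when any other library was left out. The remaining settings, apart from the replicate block, kept it within 1.5 times. Library weights were 2.92 for MG 2 and between 0.538 and 1.61 for all others. The cause of these changes was not tested, except that fewer libraries leave fewer residual degrees of freedom. None of the 39 genes reversed, which only the fits with another scaling or normalization allowed. Mtor did not pass in any setting run (the filter of 5 FPKM removes it), and the difference of -153601 in FPKM sums kept its sign without any 1 library. Depth limits all calls below about 5 FPKM.

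Same-numbered WT and MG libraries had correlations of 0.078, -0.007 and 0.066 in their deviations from the group means. Differently numbered WT and MG libraries had correlations from -0.119 to 0.055. These small values neither show nor exclude pairing by replicate number. With the replicate block the count of genes was 13 (7 higher and 6 lower), 11 of them among the 39, and the count that differed between MG and MZ was 13.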
